A study of Mus musculus with 8 samples.

Results

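The genes described here encode the nuclear-encoded subunits of respiratory complexes II, III and IV, cytochrome c and ATP synthase. They were chosen by gene symbol in the platform annotation: Sdha to Sdhd, the Uqcr and Atp5 names, Cyc1, Cycs, and the names that start with Cox4 to Cox8. That rule matched 57 probes of 47 genes among the 25697 probes of the array, and 49 probes of 43 genes passed the filter, out of 14190 probes of 9782 genes in all. To pass, a probe had to be above background (detection p-value below 0.05) on 4 or more of the 8 arrays. Illumina bead arrays measured RNA of the hypothalamus from male C57BL/6 mice, 13 weeks old: 4 animals labelled Bgn_KO, in which the gene of the matrix proteoglycan biglycan is disrupted, and 4 labelled WT. All animals ate the same rodent diet without restriction. The labels give neither the allele of Bgn_KO nor whether the WT animals were littermates.

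Complex II oxidises succinate and passes its electrons to ubiquinone, complex III moves them on to cytochrome c, and complex IV, cytochrome c oxidase, hands them to oxygen. Complexes III and IV pump protons across the inner mitochondrial membrane, and ATP synthase lets them flow back through its rotor to make ATP. Neurons depend heavily on this route to pay for ion pumping and synaptic transmission. Several small subunits of complex IV exist as isoform pairs, one made widely and the other chiefly in heart and skeletal muscle.

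The promoters of 3 members are shown because they belong to the member with the lowest p-value (Atp5e), to the complex II subunit with the lowest p-value (Sdhd) and to a muscle isoform of complex IV (Cox8b). They come from RefSeq on GRCm38.p6, from 200 bases before the annotated start to 20 bases after it, 5′ to 3′ on the strand of the gene. Capitals mark matches on either strand to CCGGAAG, the core that ETS factors such as GABP recognise, to a core of NRF-1 sites (10 letters with 1 free position), or to TATAAA.
Atp5e, chr2:174464082-174464301, minus strand: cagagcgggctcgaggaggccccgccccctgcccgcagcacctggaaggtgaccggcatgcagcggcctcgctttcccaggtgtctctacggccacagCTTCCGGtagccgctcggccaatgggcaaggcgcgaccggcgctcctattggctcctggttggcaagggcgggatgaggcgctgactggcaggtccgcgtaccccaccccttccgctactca
Sdhd, chr9:50603830-50604049, minus strand: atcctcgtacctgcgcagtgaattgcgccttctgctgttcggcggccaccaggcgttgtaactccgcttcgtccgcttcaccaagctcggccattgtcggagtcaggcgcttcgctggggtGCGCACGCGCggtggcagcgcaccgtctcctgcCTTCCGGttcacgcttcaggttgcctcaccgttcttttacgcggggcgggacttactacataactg
Cox8b, chr7:140900427-140900646, minus strand: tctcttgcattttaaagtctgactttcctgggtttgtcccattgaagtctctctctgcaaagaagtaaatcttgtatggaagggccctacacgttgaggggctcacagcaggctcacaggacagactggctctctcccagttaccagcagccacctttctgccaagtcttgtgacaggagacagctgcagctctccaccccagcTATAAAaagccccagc
RefSeq promoters were at hand for 33 of the 43 genes, as 36 windows of 300 bases (250 before the start and 50 after). CCGGAAG stood in 30.6% of the member windows, against 8.86% of all 32851 promoter windows. For the NRF-1 core the shares were 22.2% and 4.60%, and for TATAAA 5.56% and 13.6%. Atp5h, Cox6a1 and Sdhd held both the ETS and the NRF-1 core. These are matches of letters and say nothing of binding in these animals.

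Some arrays stood apart before any comparison. Between 53.8% and 56.4% of probes were above background on each array. Bgn itself was at 8.79 to 9.01 log2 signal in Bgn_KO and at 8.86, 10.44, 10.14 and 9.53 on WT replicates 1 to 4. The array labelled WT replicate 1 is thus no higher than Bgn_KO animals for the targeted gene. Whether that probe lies in the disrupted part of the gene is not known here. The array labelled WT replicate 4 had all 16 muscle marker genes with a probe above background, with a summed signal of 94600. That sum spanned 1277 to 1657 in Bgn_KO, and 1281 to 1457 across WT replicates 1 to 3. Cortical neuron markers summed to 13030 on Bgn_KO replicate 4 and to between 4102 and 5548 on the other arrays. Of 13 hypothalamic markers 10 or 11 were above background on every array, with Sim1 and Otp on none. Other sums also set arrays apart. Hypothalamic markers summed to 65430 on Bgn_KO replicate 4 and to 77006 to 84947 elsewhere. Pituitary markers summed to 836.7 on Bgn_KO replicate 1, 820.1 on WT replicate 2 and 138.1 to 437.8 elsewhere. Meningeal fibroblast markers ran from 7577 to 26690 and were highest on WT replicates 2 and 3, which also had the highest Bgn. Bgn_KO replicate 4 came next at 21169, yet had the lowest Bgn (8.79). The main results are also given without WT replicate 1, WT replicate 4 or Bgn_KO replicate 4.

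No subunit of these complexes differed between genotypes past the test: 0 of the 49 probes had a limma adjusted p under 0.05, where 0.507% of all tested probes did. Beneath that threshold the members leaned one way. The log2 difference, Bgn_KO minus WT, was below 0 for 40 of the 49 (81.6%), against 47.2% of all tested probes, and its median was -0.07, against 0.01 over all tested probes. Complex IV had 17 of 18 probes below 0 (median -0.09), ATP synthase 12 of 16 (-0.04), complex III with cytochrome c 8 of 11 (-0.06) and complex II 3 of 4 (-0.08). Probes of complexes that are assembled together are not independent of each other. The count below 0 was 45 with each array scaled to its median (median -0.13, with all tested probes at -0.05), 35 without WT replicate 4, 37 without WT replicate 1 and 39 without Bgn_KO replicate 4. With only probes detected at 0.01 on all arrays, which leaves out Uqcrfs1, Cox4i2 and Cox8b, it was 37 of 46.

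Single arrays moved these medians. Without WT replicate 4, the array with muscle transcripts, complex IV had 13 of 18 probes below 0 (median -0.05) and the median of all members was -0.04. Leaving out Cox6a2, Cox7a1 and Cox8b instead, a choice made after their values were seen, left 14 of 15 probes of complex IV below 0 (median -0.07) and a median of -0.06 over 46 members. The complex II median was -0.017 without WT replicate 1 and -0.033 without Bgn_KO replicate 1. ATP synthase had a median of -0.024 without Bgn_KO replicate 4, with 10 of 16 probes below 0, and complex III one of -0.030. Other omissions moved medians further below 0. Complex IV was at -0.11 without WT replicate 1 and also without Bgn_KO replicate 4. Without WT replicate 1 ATP synthase was at -0.055, and without WT replicate 2 complex II was at -0.12. In a tissue sample, fewer cells of a type and less RNA per cell cannot be told apart.

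**Figure D1:**
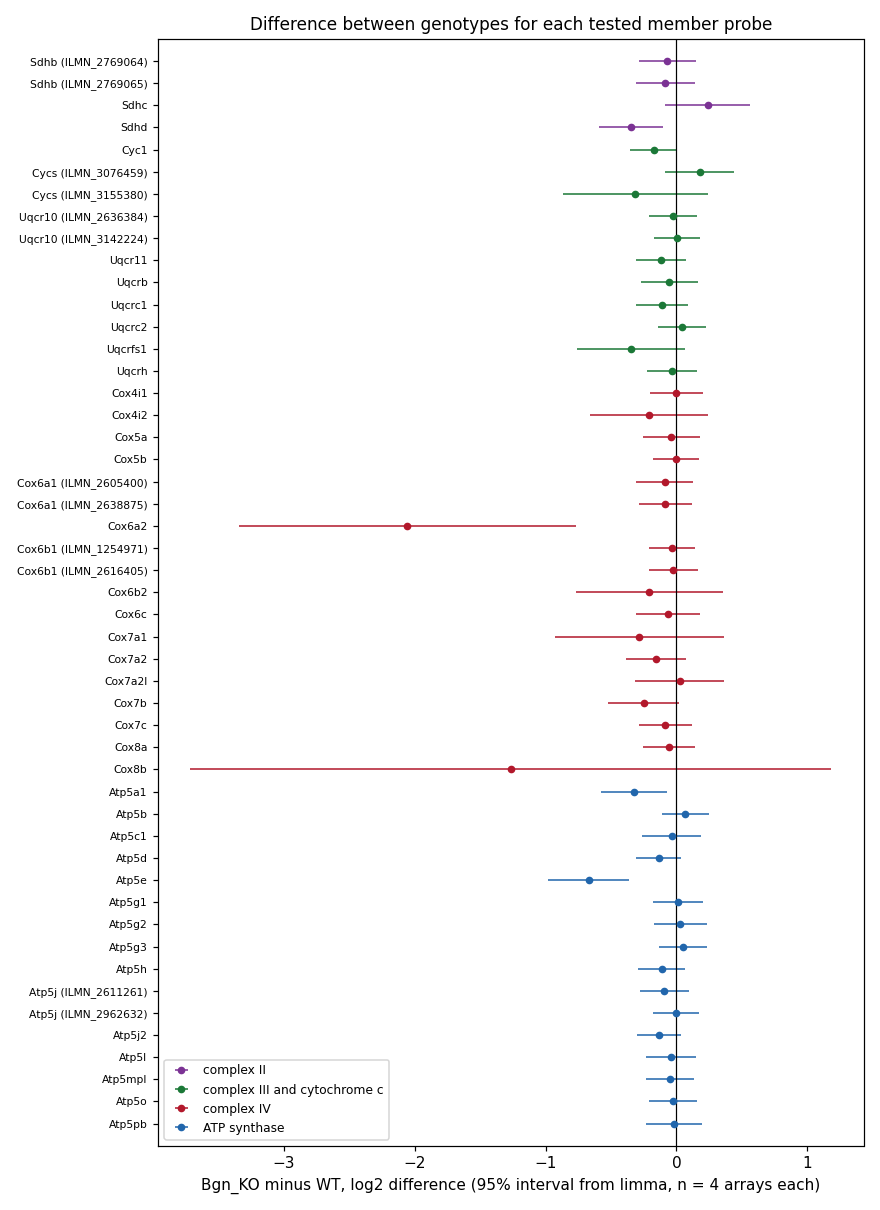
Log2 difference, Bgn_KO minus WT, for each of the 49 tested member probes (points) with its 95% interval from limma (lines), coloured by complex, with 4 arrays in each genotype. Most points lie just left of 0, Atp5e lies at -0.67, and the wide intervals belong to Cox6a2 and Cox8b.

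By an unadjusted p under 0.05, 4 members passed (8.16%), against 10.2% of all tested probes, and all 4 were lower: Atp5e, Sdhd, Atp5a1 and Cox6a2. The arrays of the 2 genotypes did not overlap for 6 members (12.2%), all lower in Bgn_KO: Atp5e, Atp5a1, Atp5d, Atp5j2, Cyc1 and Cox6a2. Over all tested probes 2.95% were separated in that direction and 3.2% in the other, where 0 members lay. The 95% interval of the difference stayed within 0.5 of 0 for 37 of the 49 probes, so larger changes lie outside that interval for them.

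Signal of the members was bright, and about as even as that of other bright probes. The median member probe had a mean signal above that of most tested probes, and 32 of the 49 were among the brightest 10%. Their residual standard deviation in the fit had a median of 0.10 on the log2 scale. It was 0.19 over all tested probes and 0.10 over the brightest 10% of them. Within the brightest 10%, 25 of the 32 member probes were below 0 (median -0.04), against 49.1% of all probes there (median 0.00). Of the 17 dimmer member probes 15 were below 0 (median -0.25), against 47.2% of all tested probes, bright ones included (median 0.01). No share for all dimmer probes alone is given here. The 17 include Uqcrfs1 and Cox4i2, which passed the filter mainly through WT. They also include Cox6a2, Cox7a1 and Cox8b, which were high on WT replicate 4. The 17 dimmer probes were less even, with a median residual standard deviation of 0.17. The interval of the difference stayed within 0.5 of 0 for 6 of the 17. All 4 members with an unadjusted limma p under 0.05 were among the 17, and 0 were among the 32. Such a p was held by 5.29% of all probes in the brightest 10% and by 10.2% of all tested probes.

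Summed marker signal of oligodendrocytes and of neurons did not overlap between genotypes, while the sums of the other marker lists did. Each sum adds linear signal, so the brightest probes weigh most. For oligodendrocytes the WT array nearest to the Bgn_KO arrays was replicate 1. The summed signal of oligodendrocyte markers was 63630 to 71960 in Bgn_KO and 73240 to 93990 in WT, with all 9 measured genes above background on every array. Neuron markers summed to 81460 to 87110 in Bgn_KO and to 77010 to 79510 in WT, with Nefl and Snap25 above background on none. Astrocyte markers summed to 56240 to 58840 in Bgn_KO and 58340 to 64320 in WT, and microglial markers to 3308 to 4443 in Bgn_KO and 3826 to 4770 in WT. The part of cell makeup in the members' differences was not tested.

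In ATP synthase the catalytic head is a ring of alpha and beta subunits around a central stalk of gamma, delta and epsilon. The epsilon subunit, Atp5e, had the smallest p-value of all members. Its log2 signal was 7.69, 7.44, 7.76 and 8.02 on Bgn_KO replicates 1 to 4 and 8.34, 8.28, 8.34 and 8.63 on WT replicates 1 to 4. Every Bgn_KO array lay below every WT array, with Bgn_KO replicate 4 nearest to the WT arrays. The difference was -0.67 (SE 0.14), 1.59-fold lower, and did not pass (adjusted p = 0.0970 in limma; exact permutation p = 0.0286, two-sided, the smallest that 4 against 4 arrays can give). It passed in 2 of 16 alternatives, without Bgn_KO replicate 4 (-0.77, limma adjusted p = 0.0459) and with array weights (-0.72, limma adjusted p = 0.0441). Without WT replicate 4, which held the muscle transcripts, it was -0.59 (adjusted p = 0.246 in limma), and leaving out WT replicate 1 gave -0.69 (adjusted p = 0.142 in limma). Without background correction it was -0.43, and -0.42 in the authors' processed values (limma adjusted p = 0.0565 and 0.0558).

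The alpha subunit, Atp5a1, was at 10.60, 10.67, 10.60 and 10.78 on the Bgn_KO arrays and at 11.18, 10.80, 10.85 and 11.12 on the WT arrays. The groups touched without overlap, at 10.78 on Bgn_KO replicate 4 and 10.80 on WT replicate 2. The difference was -0.32 (SE 0.11, limma adjusted p = 0.355), and it was -0.26 without WT replicate 1, -0.28 without WT replicate 4 and -0.36 without Bgn_KO replicate 4. The delta subunit, Atp5d, was nearly constant on the Bgn_KO arrays, 12.28 to 12.29, and spanned 12.33 to 12.49 on the WT arrays (difference -0.14, SE 0.08, limma adjusted p = 0.586). Atp5j2, the f subunit of the membrane part, was at 14.38 to 14.47 in Bgn_KO and 14.51 to 14.60 in WT (difference -0.13, SE 0.07, limma adjusted p = 0.586). Without any 1 of those 3 arrays Atp5d lay between -0.14 and -0.13 and Atp5j2 between -0.13 and -0.12. On the linear scale these last 2 differences are 9.07% and 8.87% of the WT signal.

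**Figure D2:**
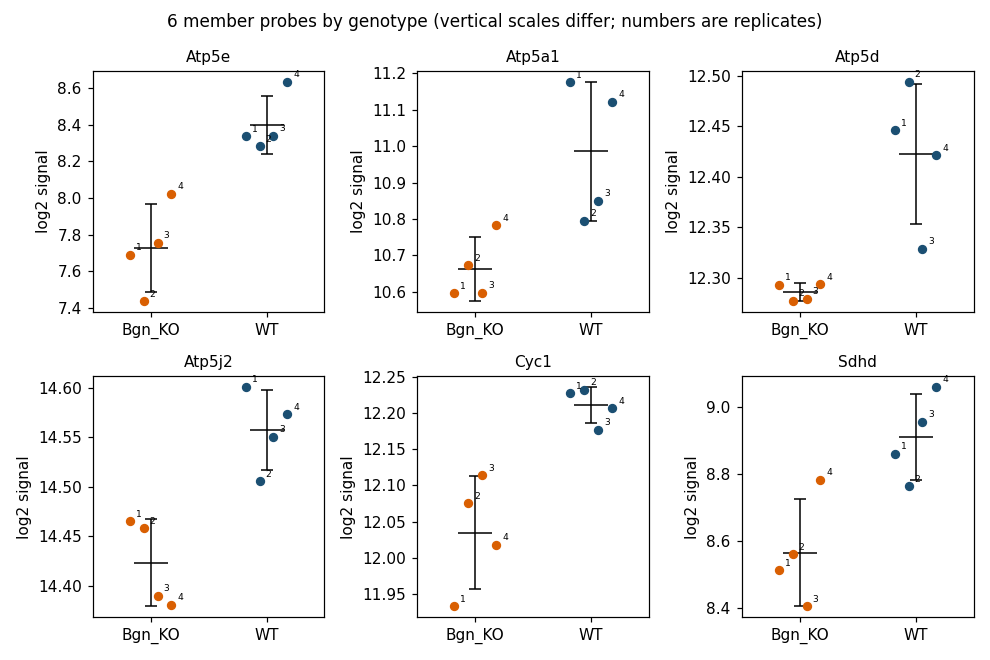
Log2 signal of 6 member probes on the 4 Bgn_KO arrays (left, orange) and the 4 WT arrays (right, blue), with replicate numbers beside the points and the mean ± SD in black. Of the 6, only Sdhd has overlapping groups, and Atp5e has the largest gap in means, 7.73 in Bgn_KO against 8.40 in WT.

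The beta subunit, Atp5b, whose probe was the brightest of the members, was 15.03 ± 0.07 on the Bgn_KO arrays and 14.96 ± 0.04 on the WT arrays (SD, n = 4 each, difference 0.07, limma adjusted p = 0.825), and gamma, Atp5c1, differed by -0.04. Atp5g1, Atp5g2 and Atp5g3 encode the same mature subunit of the proton-carrying c ring. Atp5g1 was 13.37 ± 0.11 in Bgn_KO and 13.36 ± 0.05 in WT, Atp5g2 11.47 ± 0.10 in Bgn_KO and 11.44 ± 0.09 in WT, and Atp5g3 14.79 ± 0.08 in Bgn_KO and 14.74 ± 0.05 in WT (SD, n = 4 each). The 95% intervals of these differences lay between -0.18 and 0.23, and under median scaling Atp5g1 and Atp5g2 were below 0. The stalk that holds the head still is built from Atp5pb (difference -0.02), Atp5h (-0.11), Atp5o (-0.03) and Atp5j, whose 2 tested probes gave -0.09 and -0.01. Of the small membrane subunits Atp5l differed by -0.04 and Atp5mpl by -0.05, and the probe of Atp5k was above background on 0 arrays.

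Complex II has 4 subunits, of which the flavoprotein Sdha was not analysed here. Sdhd, a membrane anchor whose promoter is shown above, was at 8.51, 8.56, 8.40 and 8.78 on the Bgn_KO arrays and 8.86, 8.76, 8.96 and 9.06 on the WT arrays. The groups met at Bgn_KO replicate 4, which lay above WT replicate 2. The difference was -0.35 (SE 0.11, limma adjusted p = 0.301, exact permutation p = 0.0571). It was -0.36 without WT replicate 1, -0.30 without WT replicate 4 and -0.42 without Bgn_KO replicate 4. The other anchor, Sdhc, leaned the opposite way, with 12.22, 12.54, 12.52 and 12.53 on the Bgn_KO arrays and 11.82, 12.42, 12.34 and 12.28 on the WT arrays (difference 0.24, SE 0.14, limma adjusted p = 0.615). Its low WT value is that of replicate 1, and without that array the difference was 0.11. The iron-sulfur subunit Sdhb had 2 bright probes that agreed closely, with differences of -0.07 and -0.08 (SE 0.10 each), which were -0.014 and -0.019 without WT replicate 1.

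Complex III passes electrons from ubiquinol through the Rieske protein, Uqcrfs1, to cytochrome c1, Cyc1. Cyc1 was at 11.93, 12.08, 12.11 and 12.02 on the Bgn_KO arrays and 12.23, 12.23, 12.18 and 12.21 on the WT arrays. Its groups did not overlap, yet the gap was narrow (difference -0.18, SE 0.08, limma adjusted p = 0.494), and it lay between -0.18 and -0.17 without any 1 of the 3 arrays named above. The probe of Uqcrfs1 was dim, above background on 1 Bgn_KO array and on 4 WT arrays, at 5.20 ± 0.38 in Bgn_KO and 5.55 ± 0.17 in WT (SD, n = 4 each). It passed the filter mainly through WT, and its difference of -0.35 is taken near background: it was -0.09 without background correction and -0.08 in the authors' processed values. The large core subunits Uqcrc1 and Uqcrc2 differed by -0.11 and 0.04. Among the small subunits Uqcrh, the hinge protein that helps cytochrome c dock, differed by -0.03, Uqcrb by -0.06, Uqcr11 by -0.12 and the 2 probes of Uqcr10 by -0.02 and 0.00. The probe of Uqcrq was above background on 0 arrays. Cytochrome c, Cycs, carries electrons between complexes III and IV, and its 2 probes leaned apart. Probe ILMN_3155380 was 7.67 ± 0.13 on the Bgn_KO arrays and 7.98 ± 0.56 on the WT arrays (difference -0.31, limma adjusted p = 0.712). WT replicate 1 was the highest of these at 8.64, and the difference was -0.10 without it and -0.54 without WT replicate 2. Probe ILMN_3076459 was 7.76 ± 0.12 in Bgn_KO and 7.59 ± 0.19 in WT (0.18, limma adjusted p = 0.648; SD, n = 4 each).

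In complex IV the widely expressed subunits differed by at most 0.25 on the log2 scale, and the muscle isoforms varied most between arrays. Cox4i1, the largest nuclear-encoded subunit, was 14.37 ± 0.11 on the Bgn_KO arrays and 14.38 ± 0.08 on the WT arrays (SD, n = 4 each, difference 0.00, 95% interval -0.21 to 0.20). Cox5a and Cox5b, which lie close to the catalytic core, differed by -0.04 and 0.00. Both probes of Cox6a1 differed by -0.09, those of Cox6b1 by -0.04 and -0.02, and Cox6c by -0.07. Cox7a2 (-0.16), Cox7b (-0.25), Cox7c (-0.09) and Cox8a (-0.05) were also below 0, with limma adjusted p of 0.528 or more. Cox7a2l, which joins complexes III and IV into supercomplexes and is not a regular subunit, differed by 0.02 and was the only probe of the complex IV names above 0 (below 0 under median scaling). Cox4i2, the isoform best known from lung and from low oxygen, was above background on 1 Bgn_KO array and on 3 WT arrays. It too passed mainly through WT, and its difference of -0.21 was -0.05 both without background correction and in the authors' processed values, and -0.06 without WT replicate 2. Of the isoforms known from testis, Cox6b2 had 1 tested probe at 6.58 ± 0.40 in Bgn_KO and 6.79 ± 0.44 in WT (SD, n = 4 each), and the probes of Cox7b2 and Cox8c were above background on 0 arrays.

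Cox6a2, the heart and muscle partner of Cox6a1, has also been described in parvalbumin interneurons of the mouse brain. It was at 8.91, 8.04, 7.83 and 7.89 on the Bgn_KO arrays and at 9.70, 9.33, 9.70 and 12.17 on the WT arrays. Every Bgn_KO array lay below every WT array, and WT replicate 4 lay far above the rest. The difference was -2.05 (SE 0.57, limma adjusted p = 0.229, exact permutation p = 0.0286). Without WT replicate 4 the groups still did not overlap, and the difference was -1.41 (SE 0.26), 2.65-fold lower (limma adjusted p = 0.108, exact permutation p = 0.0571). On the arrays that remain, the ranges of summed muscle marker signal given above overlap between genotypes; the part of muscle RNA in that difference was not tested. Leaving out WT replicate 1 instead gave -2.23 (adjusted p = 0.240 in limma).

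Cox8b and Cox7a1, the other muscle isoforms, were high on WT replicate 4 alone. Cox8b was at 5.93, 6.23, 5.10 and 6.12 on the Bgn_KO arrays and at 5.64, 5.97, 5.77 and 11.05 on the WT arrays. WT replicate 4 thus stood 38.3-fold above the mean of the other WT arrays. That fold depends on the background removed, as the probe was dim elsewhere and above background on 3 of the 4 Bgn_KO arrays. Its deposited signal was 2391 on WT replicate 4 and 204 to 222 on the other WT arrays. The difference of Cox8b was -1.26 (SE 1.09) with all arrays and 0.05 (SE 0.26) without WT replicate 4. Cox7a1 was at 8.93, 8.88, 8.85 and 8.68 on the Bgn_KO arrays and at 8.64, 9.09, 8.66 and 10.09 on the WT arrays, a 2.45-fold excess of WT replicate 4 over the other WT arrays. Its difference was -0.28 (SE 0.29) with all arrays and 0.04 (SE 0.13) without that one. For the widely made partners WT replicate 4 was 1.04-fold above the other WT arrays for Cox8a, 1.03-fold for Cox7a2, and 1.07-fold for both probes of Cox6a1.

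**Figure D3:**
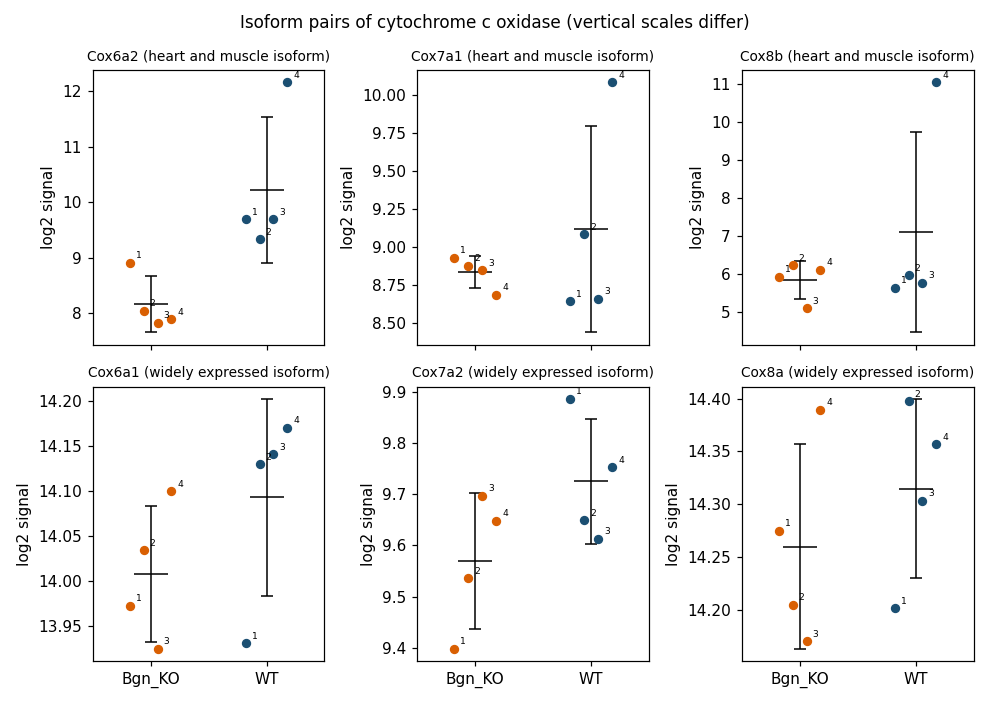
Log2 signal of 3 heart and muscle isoforms of complex IV (top) and of their widely expressed partners (bottom, for Cox6a1 probe ILMN_2638875) on the 4 Bgn_KO arrays (left, orange) and the 4 WT arrays (right, blue), with replicate numbers and mean ± SD; vertical scales differ. WT replicate 4 stands at 12.17, 10.09 and 11.05 in the top row, and Cox6a2 is the only one of the 3 with separated groups.

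Offsets of whole complexes between arrays were small. The median deviation of all 49 probes from their own means was -0.08, 0.00, -0.05 and -0.04 on Bgn_KO replicates 1 to 4 and -0.01, 0.02, 0.02 and 0.07 on WT replicates 1 to 4, so Bgn_KO replicate 2 lay above WT replicate 1. Complex IV ranged from -0.10 to 0.00 on the Bgn_KO arrays and from -0.04 to 0.09 on the WT arrays, and ATP synthase from -0.05 to 0.02 in Bgn_KO and from -0.01 to 0.07 in WT. For the 4 probes of complex II the lowest array was Bgn_KO replicate 1 (-0.17) and the highest WT replicate 1 (0.16). In each complex the ranges of the 2 genotypes overlapped. All tested probes stayed between -0.02 and 0.01, a range that quantile normalization largely sets in advance.

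**Figure D4:**
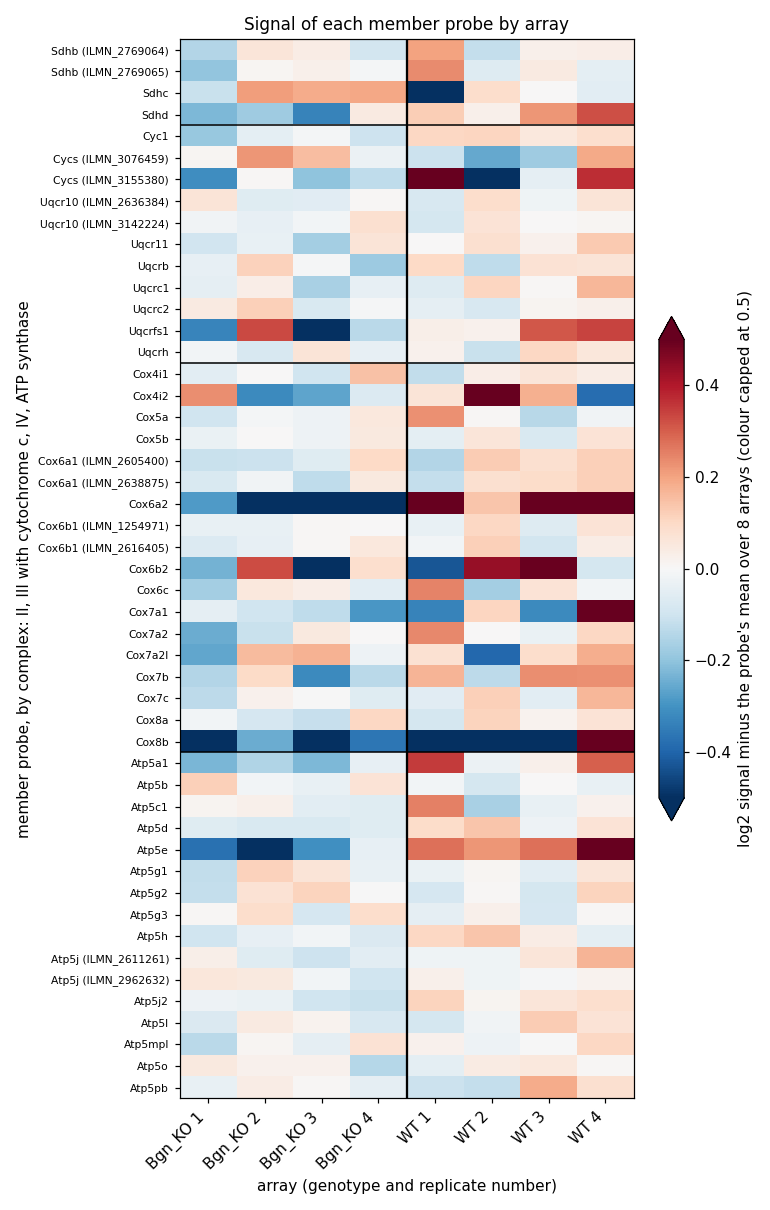
Log2 signal of each tested member probe minus its mean over the 8 arrays, by array (columns, Bgn_KO left of WT) and complex (blocks from top: II, III with cytochrome c, IV, ATP synthase), with colour capped at 0.5. Most cells are pale; Atp5e and Cox6a2 change colour between the genotypes, and Cox8b and Cox7a1 are dark red on WT replicate 4.

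Of the 8 probes that missed the filter, 6 were above background on 0 arrays, a second probe of Cox6b2 on 1 Bgn_KO array and another of Sdhb on 2 WT arrays. For both of those last 2 probes the groups did not overlap near background, in opposite directions. This Cox6b2 probe was at 5.21 in Bgn_KO and 4.86 in WT, and this Sdhb probe at 4.86 in Bgn_KO and 5.24 in WT. Just inside the filter were Cox4i2 with 4 arrays and Uqcrfs1 with 5. In 5 of the 6 genes with 2 tested probes the differences lay within 0.09 of each other, and in Cycs 0.49 apart.

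Among related genes 0 were called, where 0.507% of all tested probes were. Most lists had more members below 0 than above, against 47.2% of all tested probes below 0 (median 0.01). Of 38 tested complex I genes 28 were below 0 (median -0.03), with Ndufb9 at -0.28 and Ndufb5 at -0.27 (limma adjusted p = 0.389 and 0.404). Of 30 assembly factor genes for complexes II to IV and ATP synthase 20 were below 0 (median -0.03). The smallest p-values there belonged to Cox11, which delivers copper to complex IV (-0.39, limma adjusted p = 0.416), and Cox20, a chaperone of complex IV assembly (-0.24, limma adjusted p = 0.491). Atpif1, the inhibitor of ATP synthase, was 14.40 ± 0.02 on the Bgn_KO arrays and 14.48 ± 0.02 on the WT arrays (SD, n = 4 each, difference -0.09, limma adjusted p = 0.734). Carriers and channels that supply phosphate and adenine nucleotides were below 0 for 5 of 6 genes, among them the phosphate carrier Slc25a3 (-0.11) and the ADP/ATP exchanger Slc25a5 (-0.10). Of 12 genes of the tricarboxylic acid cycle 9 were below 0 (median -0.02), with Suclg2 at -0.20 and Dld at -0.30. Regulators of mitochondrial biogenesis went the other way, with 9 of 12 above 0 (median 0.08). The coactivator Ppargc1b was 9.42 ± 0.17 on the Bgn_KO arrays and 8.98 ± 0.16 on the WT arrays (difference 0.45, SE 0.12, limma adjusted p = 0.203), and the mitochondrial transcription factor Tfb2m was 9.40 ± 0.08 in Bgn_KO and 9.14 ± 0.11 in WT (0.26, SE 0.09, limma adjusted p = 0.371; SD, n = 4 each). Subunits encoded in mitochondrial DNA were not analysed here.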

How the data were processed

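The authors deposited signal intensities per probe and array, not normalized per the file headers, each with a detection p-value. Their processed intensities came from lumi 2.10.0 under R 2.15.0, as the submitters' processing notes say, by a normalization that no source here names. A letter in each sample description matched columns to animals. Here limma 3.58.1 (R 4.3.3) took the background from detection p-values, removed it by normexp (offset 16) and quantile normalized the arrays before log2. Probe signals of different genes are not comparable as levels. The files name no genome build. The platform table names 1 gene for 23978 probes, several for 0, and does not list 1719.

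The 14190 probes that passed the filter were fitted in limma as Bgn_KO minus WT, with p-values adjusted by Benjamini-Hochberg over all of them and a threshold of 0.05. SE and 95% intervals come from the moderated variance. Exact permutation p-values are two-sided over all 70 splits for single probes. Related genes are given by 1 probe each, that with the highest mean signal. Members, marker lists and related gene lists were chosen with earlier results of these data known. Probes are named by a rule. It takes members whose groups did not overlap, and the 2 highest and 2 lowest differences and the brightest probe of each complex. All Sdh genes and the isoform pairs are also in it. The other members lie outside that rule and were chosen with values seen. They appear with their difference to account for every tested subunit. From each related list the 2 smallest p-values are named.

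Simulated data for all 14190 probes, 5 sets with 200 changed probes each, returned 35.6% of the log2 changes sized 0.5, 77.2% for size 1, 94.4% for size 1.5 and 97.6% for size 2, and 0 had a turned sign. These shares are for probes of the whole array. The residual standard deviation had a median of 0.10 over the members and 0.19 over all tested probes. The shares therefore need not hold for the members, for which recovery was not tested. The number of arrays limits the precision.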

Additional observations from a re-analysis of the deposited data

Results flagged for a closer look

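Among 98 sets of 4 arrays (49 probes, 2 genotypes), 10 held an array whose gap to its nearest neighbour exceeded Dixon's 95% limit, and chance gives about 5% of sets. On WT replicate 4, with muscle transcripts, the high values were those of Cox6a2 (12.17, others 9.33 to 9.70), Cox8b (11.05, others 5.64 to 5.97) and Atp5e (8.63, others 8.28 to 8.34). On Bgn_KO replicate 1, Sdhb probe ILMN_2769065 (11.68, others 11.87 to 11.90) and Sdhc (12.22, others 12.52 to 12.54) were low. WT replicate 1, whose Bgn signal lay among the Bgn_KO arrays, was low for Cox4i1 (14.25, others 14.41 to 14.44) and Cox6a1 probe ILMN_2638875 (13.93, others 14.13 to 14.17). WT replicate 2 was low for Uqcrb (11.95, others 12.14 to 12.18) and Cox7b (7.91, others 8.22 to 8.28), and Bgn_KO replicate 4 for Atp5o (10.35, others 10.51 to 10.54).

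A probe of Cox6b2 outside the test, ILMN_1229627, was above background on 1 Bgn_KO array and on 0 WT arrays.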

How the results depend on the processing

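The count of members past 0.05 was 0 under 14 of the 16 alternatives that refit the data and 1, Atp5e, with array weights and without Bgn_KO replicate 4 (range 0 to 1 with each array left out). Over all tested probes the count of 72 became 47 with probes detected at 0.01 on all arrays, 116 with array weights, 26 with the replicate block and 42 without both replicates 4, and 43 to 76 with each array left out. The low end came without WT replicate 4, and it was 44 without WT replicate 3. Deviations of same-numbered arrays had r between -0.19 and 0.10, and those of other pairs -0.18 to 0.19. With 4 arrays a genotype, each centred on its genotype mean, that check cannot tell whether same-numbered arrays share a batch. The replicate block changed no call among the members.

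Median scaling moved the median difference to -0.13 for all members, -0.13 for complex III with cytochrome c, -0.15 for complex IV and -0.11 for ATP synthase. For complex III it was also -0.018 without both replicates 4, -0.11 with 1 probe a gene, and -0.10 (without Bgn_KO replicate 2) to -0.030 (without Bgn_KO replicate 4) with each array left out, and -0.09 without WT replicate 2. Every one of the 5 medians (all members and each complex) stayed below 0 under every alternative run, the one without the 3 muscle isoforms included. Of 525 values of the 33 named probes under alternatives, 494 kept the sign, and the other 31 moved by less than the replicate SD; 2 passed 0.05, both of Atp5e. The cause was not tested. For dim probes, signal near background limits what can be seen.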
